A study of Homo sapiens with 18 samples.

Results

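IGFBP3, SEPTIN4, NSG1, VCAN and ABCA12 are 5 genes with low RNA levels in H1299 cells, taken by symbol out of the 60622 genes in the deposited tables. They were selected on their level against DMSO, which earlier results of these data placed far above it in cells that make p53 and were given an acetyltransferase-recruiting compound, so their difference from DMSO in induced cells is a description and carries no test here. All 5 were found, in all 18 libraries. H1299, a human line from non-small cell lung cancer, makes no p53 protein of its own. The line used here was given wild-type p53-FKBP12F36V-HA, switched on by doxycycline: a p53 with a bindable FKBP12 domain and an HA tag. The 6 groups held 3 libraries each, all at 24 h: induced cells with AceTAGp300/CBP-1, induced cells with AceTAGPCAF/GCN5-4, induced cells with DMSO, and non-induced cells with each of the same 3 treatments. The labels give no dose for either compound, do not say whether the non-induced cells received doxycycline, and do not say whether the 3 libraries of a group came from separate cultures, so the p-values measure only the spread between these libraries.

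p53 is a transcription factor that binds DNA after cell stress and switches on genes for cell cycle arrest, repair and cell death. p300 and CBP are a pair of related lysine acetyltransferases, PCAF and GCN5 another, and both pairs add acetyl groups to histones and to p53 itself. The AceTAG compounds are bifunctional molecules that bind FKBP12F36V with one end and the named acetyltransferase pair with the other, so that the enzyme is brought to the fused p53. IGFBP3 is a secreted protein that carries insulin-like growth factors in blood and tissue and is a known p53 target. VCAN (versican) is a large chondroitin sulfate proteoglycan of the extracellular matrix that binds hyaluronan. NSG1, earlier called D4S234E, is a small membrane protein of neuronal endosomes. ABCA12 is the ATP-driven lipid transporter of keratinocytes that loads lipid into lamellar granules for the skin barrier. SEPTIN4 is a filament-forming GTPase, and its ARTS isoform promotes apoptosis by antagonising the caspase inhibitor XIAP.

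The libraries held between 9055888 and 29166322 gene counts. At that depth a count of 3, taken here as the floor below which a level is not read, corresponds to between 0.103 and 0.331 CPM, a gene's count scaled to the same total in every library. Replicate 3 of non-induced DMSO was the shallowest library, and replicate 3 of induced DMSO had 0.714% of its counts in mitochondrial genes, against 1.32% to 2.45% in the other 17 libraries, so values and calls of the 5 genes are also given without 1 of these 2 libraries where a call was lost or a value moved by over 1.5 times, and the calls in the gene lists are given without them. CDKN1A, the p53 target that encodes the cell cycle inhibitor p21, averaged 2389.8 ± 59.6, 831 ± 26.7 and 352 ± 25.2 CPM in induced cells with the p300/CBP compound, the PCAF/GCN5 compound and DMSO, against 89.6 to 105 CPM in the non-induced groups (SD, n = 3 libraries each). In bulk RNA, fewer cells that express a gene and less RNA in each cell cannot be told apart.

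The first RefSeq promoter of each gene (GRCh38.p14, from 250 bases before to 50 bases after the start of transcription, read on the gene's strand) is shown because these genes were chosen together for their levels in induced cells and their promoters carry different sequence elements. Capitals mark matches, on either strand, to the 10-base p53 half-site, to TATAAA, to TATATA, to the GC box GGGCGG or to the AP-1 motif TGANTCA; no matches overlapped. The windows are chr7:45921223-45921522 (minus strand) for IGFBP3, chr5:83471494-83471793 (plus strand) for VCAN, chr4:4386852-4387151 (plus strand) for NSG1, chr2:215138577-215138876 (minus strand) for ABCA12 and chr17:58532011-58532310 (minus strand) for SEPTIN4.
IGFBP3: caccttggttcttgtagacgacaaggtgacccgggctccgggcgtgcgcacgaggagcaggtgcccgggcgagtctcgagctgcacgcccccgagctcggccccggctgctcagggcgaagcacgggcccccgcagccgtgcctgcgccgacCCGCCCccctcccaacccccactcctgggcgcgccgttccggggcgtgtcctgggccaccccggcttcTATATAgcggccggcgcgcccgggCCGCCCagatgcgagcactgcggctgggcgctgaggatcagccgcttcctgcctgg
VCAN: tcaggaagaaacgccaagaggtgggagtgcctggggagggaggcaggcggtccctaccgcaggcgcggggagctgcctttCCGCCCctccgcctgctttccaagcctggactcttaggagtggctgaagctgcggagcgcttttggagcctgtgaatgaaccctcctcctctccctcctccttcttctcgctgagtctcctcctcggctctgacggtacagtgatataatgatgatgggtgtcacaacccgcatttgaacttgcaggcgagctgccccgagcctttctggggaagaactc
NSG1: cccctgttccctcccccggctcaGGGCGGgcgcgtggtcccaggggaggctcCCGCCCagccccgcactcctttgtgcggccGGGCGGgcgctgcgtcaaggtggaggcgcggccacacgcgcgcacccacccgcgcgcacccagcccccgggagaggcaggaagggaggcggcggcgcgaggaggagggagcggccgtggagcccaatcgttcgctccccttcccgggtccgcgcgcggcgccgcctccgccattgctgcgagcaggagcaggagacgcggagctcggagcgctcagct
ABCA12: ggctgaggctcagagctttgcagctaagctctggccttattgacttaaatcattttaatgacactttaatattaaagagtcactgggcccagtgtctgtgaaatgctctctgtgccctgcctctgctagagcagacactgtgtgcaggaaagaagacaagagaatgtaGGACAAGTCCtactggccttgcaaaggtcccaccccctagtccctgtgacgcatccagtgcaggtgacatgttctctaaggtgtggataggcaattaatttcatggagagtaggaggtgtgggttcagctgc
SEPTIN4: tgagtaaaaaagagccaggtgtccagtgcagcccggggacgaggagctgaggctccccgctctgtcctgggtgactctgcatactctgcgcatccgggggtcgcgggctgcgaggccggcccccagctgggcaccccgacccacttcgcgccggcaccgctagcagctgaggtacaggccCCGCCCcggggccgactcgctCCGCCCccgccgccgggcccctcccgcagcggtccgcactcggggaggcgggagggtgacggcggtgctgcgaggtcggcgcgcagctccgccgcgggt

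Of these 5 windows, the ABCA12 window held the match to the p53 half-site, which begins 82 bases before the start, and no GC box. IGFBP3 had TATATA 30 bases before its start and 2 GC boxes, while NSG1 had 3 GC boxes, SEPTIN4 had 2 and VCAN had 1. Over all 35116 RefSeq promoters of this length, 6.63% held the p53 half-site, 3.99% TATATA, 11.5% TATAAA, 45% a GC box and 7.71% the AP-1 motif. The GC content was 74.7% for IGFBP3, 60.3% for VCAN, 77.3% for NSG1, 48.7% for ABCA12 and 75% for SEPTIN4, against a median of 58.7% over all promoters. RefSeq lists 10 promoters for the 5 genes. Of the 5 not shown, the second NSG1 promoter held TATAAA 26 bases before its start. The second ABCA12 promoter held TATAAA after its start, beginning at base 7. The fourth SEPTIN4 promoter held the AP-1 motif, and the remaining SEPTIN4 promoters not shown held none of the 5 motifs. A match describes the letters only, and the libraries do not tell which start was used.

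The question asked of the 5 genes was whether p53 induction moved them by itself, in cells given only DMSO. ABCA12, NSG1 and VCAN were higher in every induced than in every non-induced DMSO library and passed the test. IGFBP3 did not pass, and SEPTIN4 was too low to be tested. Of all 15055 genes tested in this comparison, 6.01% rose and 7.77% fell (edgeR's quasi-likelihood test, Benjamini-Hochberg adjusted p below 0.05). The induced DMSO libraries are also those in which the 5 genes had to be low to be chosen, so this comparison is not independent of the choice.

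ABCA12 had 1, 0.892 and 1.4 CPM (25, 20 and 33 counts) in the induced DMSO libraries, against 0.114, 0.078 and 0 CPM (3, 2 and 0 counts) in the non-induced DMSO libraries. Every induced library was above every non-induced one, and the non-induced libraries were at or under the floor of 3 counts. The summed counts differed 13.4-fold (95% interval 5.52 to 42.5, counting error only), and the fitted log2 fold change was 3.65 ± 0.53 (SE; adjusted p = 0.0023, edgeR). The adjusted p lay between 2.08e-05 and 0.0259 when each of the 6 libraries was left out in turn.

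NSG1 had 0.884, 0.491 and 0.848 CPM in the induced DMSO libraries, against 0.0759, 0.039 and 0.331 CPM in the non-induced DMSO libraries, the last of these being 3 counts in the shallowest library. The groups did not overlap, and the summed counts, 53 in induced and 6 in non-induced DMSO libraries, differed 7.61-fold (95% interval 3.27 to 21.7). The fitted log2 fold change was 2.78 ± 0.64 (adjusted p = 0.021, edgeR). The call was lost without replicate 1 of induced DMSO (adjusted p = 0.0685), without replicate 1 of non-induced DMSO (adjusted p = 0.128) and without replicate 2 of non-induced DMSO (adjusted p = 0.133), and the log2 fold change was 3.56 without the shallow library. ABCA12 and NSG1 passed the filter on low counts only through their counts in induced cells, so that they passed the test is not counted as support for the group of 5. With no filter on low counts the adjusted p was 1.9e-07 for ABCA12 and 0.0014 for NSG1 (edgeR). The log2 fold changes there were 3.65 ± 0.62 and 2.74 ± 0.69, no larger and no tighter than with the filter. That setting passed 2927 genes, against 2075 with the filter, so its lower p is not read as stronger evidence.

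VCAN had 3.33, 3.43 and 1.74 CPM in the induced DMSO libraries, against 1.48, 0.975 and 0.994 CPM in the non-induced DMSO libraries. Its lowest induced library, replicate 3, is the library with few mitochondrial counts, and it still lay above all 3 non-induced libraries. The log2 fold change was 1.23 ± 0.32 (adjusted p = 0.0344, edgeR), a 2.35-fold rise. The call was lost when any library other than replicate 3 of induced DMSO was left out, with adjusted p = 0.101 and 0.0854 without replicates 1 and 2 of induced DMSO and 0.0692, 0.166 and 0.111 without replicates 1, 2 and 3 of non-induced DMSO. Without replicate 3 of induced DMSO the log2 fold change was 1.47 (adjusted p = 6.63e-06).

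IGFBP3 had 0.482, 1.2 and 0.339 CPM in the induced DMSO libraries, against 1.25, 0.78 and 0.331 CPM in the non-induced DMSO libraries. The groups overlapped throughout, and in each the highest library had more than 3 times the level of the lowest. The log2 fold change was -0.41 ± 0.54 (95% interval -1.63 to 0.81, adjusted p = 0.668, edgeR), so a rise of up to 0.81 on the log2 scale lies within the interval. SEPTIN4 had 0.241, 0.223 and 0.382 CPM (6, 5 and 9 counts) in the induced DMSO libraries, against 0.19, 0.273 and 0.442 CPM (5, 7 and 4 counts) in the non-induced DMSO libraries. The summed counts of SEPTIN4 were 20 in induced, against 16 in non-induced DMSO libraries, a ratio of 1.08 (95% interval 0.53 to 2.22), and a two-sided exact permutation test over the 6 libraries gave p = 0.8, where the smallest p that 3 against 3 libraries allow is 0.1.

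**Figure D1:**
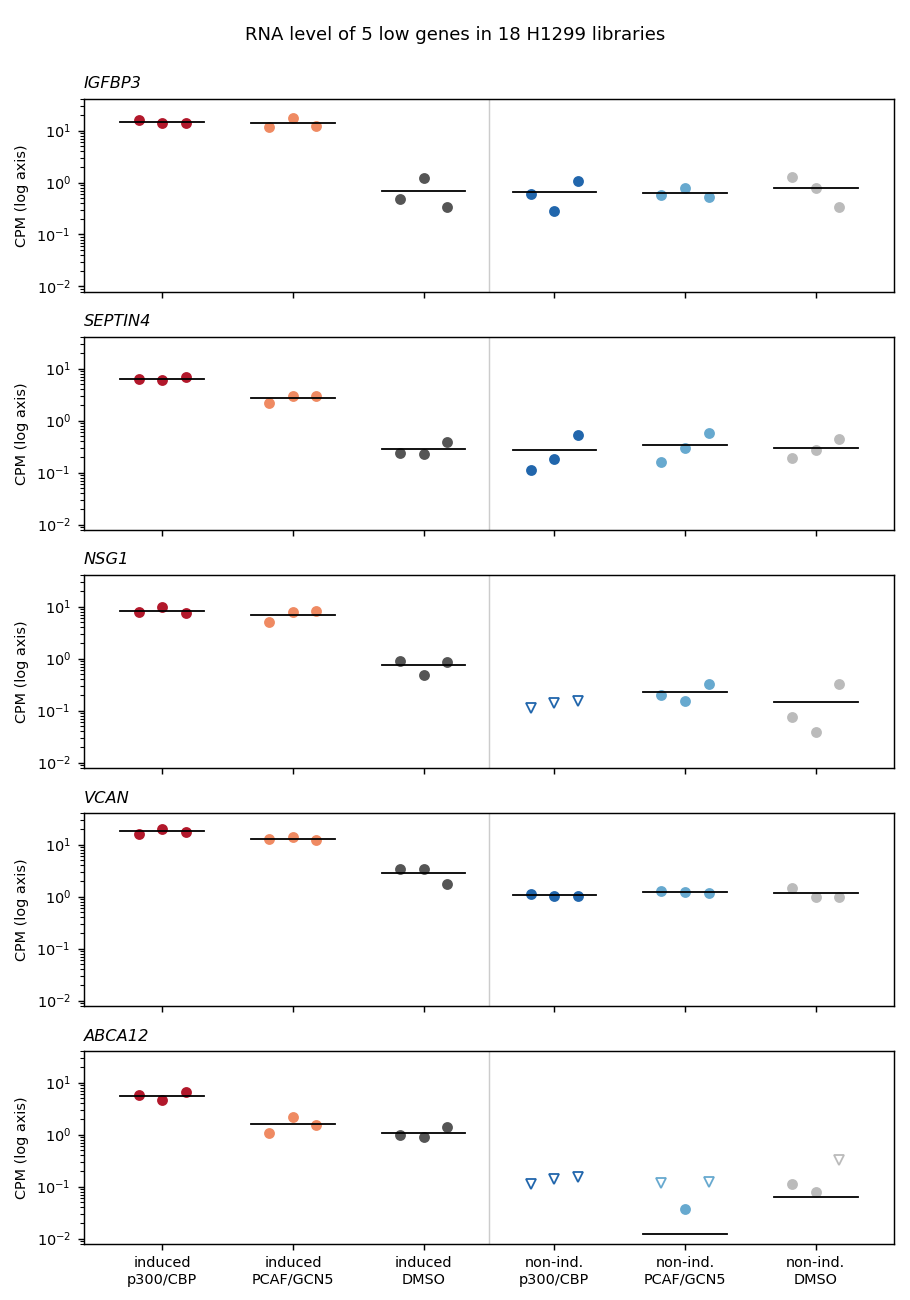
RNA level of each gene (CPM, log axis) in the 18 libraries, with induced groups left of the grey line and non-induced groups right of it; filled points are libraries, open triangles are libraries with 0 counts drawn at the level of 3 counts, and black bars are group means (no bar where the mean is 0 CPM). IGFBP3 and SEPTIN4 overlap between induced DMSO and non-induced DMSO, where NSG1, VCAN and ABCA12 do not, and ABCA12 with the PCAF/GCN5 compound overlaps induced DMSO.

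In induced cells, 4 of the 5 genes stood far above DMSO with either compound, and ABCA12 did so with the p300/CBP compound alone. These are the contrasts that chose the genes, so the values are given with no test. IGFBP3 had 15.7, 14.2 and 14.2 CPM in the induced p300/CBP libraries and 11.8, 17.6 and 12.3 CPM in the induced PCAF/GCN5 libraries, against 0.482, 1.2 and 0.339 CPM in the induced DMSO libraries. Its log2 fold changes over DMSO were 4.44 ± 0.29 with the p300/CBP compound and 4.33 ± 0.33 with the PCAF/GCN5 compound (SE). Without replicate 2 of induced DMSO, which held 27 of the 47 IGFBP3 counts of that group, the values were 5.12 and 5.01, and without replicate 3 they were 4.14 and 4.03.

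SEPTIN4 had 6.4, 6.01 and 6.78 CPM in the induced p300/CBP libraries and 2.19, 2.92 and 3.02 CPM in the induced PCAF/GCN5 libraries, against 0.223 to 0.382 CPM in the induced DMSO libraries. The log2 fold changes were 4.47 ± 0.23 and 3.20 ± 0.33, and the libraries of the 3 groups fell into 3 separate ranges. NSG1 had 7.73, 9.7 and 7.69 CPM in the induced p300/CBP libraries and 4.97, 7.82 and 8.14 CPM in the induced PCAF/GCN5 libraries, against 0.491 to 0.884 CPM in the induced DMSO libraries. Its log2 fold changes were 3.47 ± 0.23 and 3.17 ± 0.28, and the libraries of the 2 compounds overlapped.

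VCAN had 16.2, 20.3 and 17.8 CPM in the induced p300/CBP libraries and 12.8, 13.9 and 12.2 CPM in the induced PCAF/GCN5 libraries, against 1.74 to 3.43 CPM in the induced DMSO libraries. Its log2 fold changes were 2.67 ± 0.21 and 2.16 ± 0.21. ABCA12 had 5.75, 4.55 and 6.53 CPM in the induced p300/CBP libraries and 1.06, 2.17 and 1.51 CPM in the induced PCAF/GCN5 libraries, against 1, 0.892 and 1.4 CPM in the induced DMSO libraries. The p300/CBP libraries of ABCA12 stood apart at a log2 fold change of 2.34 ± 0.23, whereas its PCAF/GCN5 libraries overlapped DMSO at 0.46 ± 0.34 (95% interval -0.30 to 1.22). ABCA12 therefore goes against the description of the 5 genes as strongly higher with both compounds.

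Ordered by fold change over all 15019 genes fitted with the p300/CBP compound, the genes stood at rank 6 (SEPTIN4), 7 (IGFBP3), 12 (NSG1), 27 (VCAN) and 36 (ABCA12). With the PCAF/GCN5 compound IGFBP3 was at rank 4, SEPTIN4 at 7, NSG1 at 8, VCAN at 21 and ABCA12 at 662 of 15078. As background, 2.94% of genes passed upward and 3.04% downward with the p300/CBP compound, and 0.338% upward and 0.00663% downward with the PCAF/GCN5 compound, and nothing is read from this for the chosen genes. The authors' deposited table runs the other way round, DMSO over compound. It gives ABCA12 a log2 fold change of -2.33 for the p300/CBP compound and -0.4684 for the PCAF/GCN5 compound.

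Per length of the gene model, the order of levels in the induced p300/CBP libraries was IGFBP3 (3.21 ± 0.186 CPM per kilobase), NSG1 (1.92 ± 0.264), VCAN (1.23 ± 0.142), SEPTIN4 (0.631 ± 0.038) and ABCA12 (0.584 ± 0.104), with SEPTIN4 and ABCA12 within each other's spread (SD, n = 3 libraries each). That length covers all annotated exons, 10135 bases for SEPTIN4 and 4571 for IGFBP3. Which transcripts were in use is not known, so the order between genes depends on the annotation. In the induced PCAF/GCN5 libraries SEPTIN4, at 0.268 ± 0.0447 CPM per kilobase, lay above ABCA12, at 0.164 ± 0.0578. In the induced DMSO libraries VCAN (0.193 ± 0.0648), NSG1 (0.17 ± 0.0499), IGFBP3 (0.148 ± 0.101) and ABCA12 (0.114 ± 0.0277) lay within each other's spread, and SEPTIN4 (0.0278 ± 0.00857) was lowest. In the non-induced DMSO libraries IGFBP3 (0.172 ± 0.101) and VCAN (0.0783 ± 0.0195) lay within each other's spread, SEPTIN4 (0.0297 ± 0.0127) lay below VCAN, and NSG1 and ABCA12, with at most 3 counts in a library, were at or under the floor and are not ordered.

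Set directly against each other in induced cells at 24 h, the p300/CBP compound gave higher ABCA12, SEPTIN4 and VCAN than the PCAF/GCN5 compound, and no difference passed for NSG1 and IGFBP3. This pair of compounds, which differ in the acetyltransferase pair they recruit, was compared once in induced and once in non-induced cells, and each p is adjusted over all genes. In induced cells 1.87% of 14983 genes were higher and 2.25% lower with the p300/CBP compound (edgeR, adjusted p below 0.05). The same libraries, set against DMSO, chose the genes, so the calls of the chosen genes in induced cells are not independent of the choice. ABCA12 stood far above induced DMSO with the p300/CBP compound alone (log2 fold change 2.34, against 0.46 with the PCAF/GCN5 compound). Its difference between the compounds therefore cannot be separated from the choice. The p-values of the chosen genes in induced cells are given as a description and are not counted as support.

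The log2 difference, p300/CBP over PCAF/GCN5, was 1.89 ± 0.23 for ABCA12 (95% interval 1.40 to 2.38, adjusted p = 0.000151, edgeR), a 3.7-fold higher level. It was 1.27 ± 0.17 for SEPTIN4 (95% interval 0.92 to 1.62, adjusted p = 0.000273, edgeR), a 2.41-fold higher level, and both calls held without any 1 library. For VCAN it was 0.50 ± 0.10 (95% interval 0.28 to 0.72, adjusted p = 0.0102, edgeR). The VCAN call was lost without replicate 2 (adjusted p = 0.102) or replicate 3 (adjusted p = 0.0514) of the induced p300/CBP libraries and when all 6 groups shared one estimate of the spread (adjusted p = 0.0896). The difference was 0.30 ± 0.17 for NSG1 (95% interval -0.06 to 0.66, adjusted p = 0.411, edgeR) and 0.11 ± 0.13 for IGFBP3 (95% interval -0.17 to 0.39, adjusted p = 0.76, edgeR). For IGFBP3 the summed counts were 971 in the libraries of each compound.

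**Figure D2:**
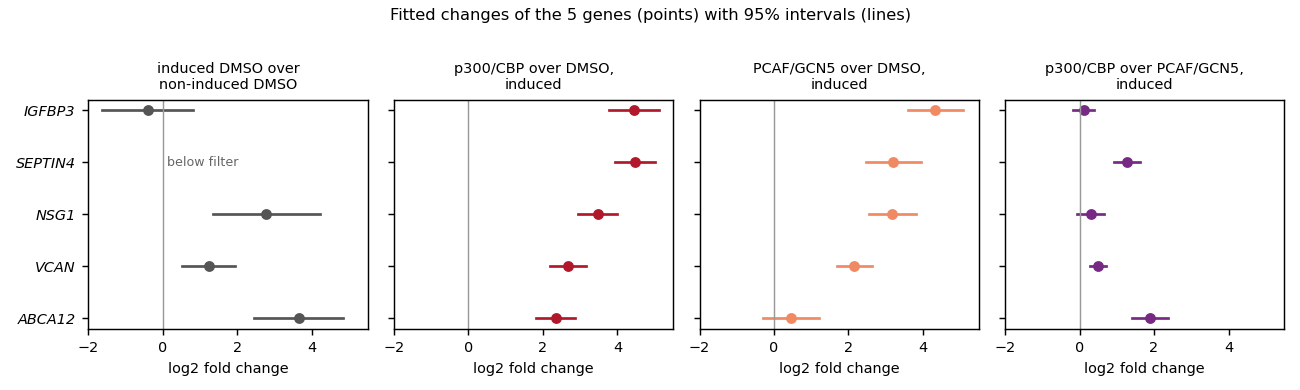
Fitted log2 fold changes (points) with 95% intervals (lines) of the 5 genes in 4 comparisons, each named above its panel with the first group over the second; SEPTIN4 was below the filter on low counts in the induction panel. The induction panel separates ABCA12, NSG1 and VCAN, whose intervals lie above 0, from IGFBP3 at -0.41 with an interval across 0. The 2 panels of a compound over DMSO are those that chose the genes and are drawn as a description; ABCA12 stands at 2.34 in the first and at 0.46 in the second.

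In non-induced cells neither compound moved any of the genes past the test, and only IGFBP3 and VCAN had enough counts to be tested. These libraries took no part in choosing the genes. With the p300/CBP compound, 3.43% of 14943 genes rose and 6.46% fell against DMSO. VCAN had 1.14, 1.02 and 1.04 CPM in the non-induced p300/CBP libraries and 1.29, 1.24 and 1.15 CPM in the non-induced PCAF/GCN5 libraries, against 1.48, 0.975 and 0.994 CPM in the non-induced DMSO libraries. All 9 VCAN values lay between 0.975 and 1.48 CPM. The log2 fold change over DMSO was -0.16 ± 0.29 with the p300/CBP compound (95% interval -0.78 to 0.46, adjusted p = 0.782, edgeR) and 0.04 ± 0.29 with the PCAF/GCN5 compound (95% interval -0.57 to 0.66, adjusted p = 0.985, edgeR).

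IGFBP3 had 0.606, 0.278 and 1.09 CPM in the non-induced p300/CBP libraries and 0.587, 0.789 and 0.534 CPM in the non-induced PCAF/GCN5 libraries, against 1.25, 0.78 and 0.331 CPM in the non-induced DMSO libraries. The 3 groups overlapped. The log2 fold change over DMSO was -0.48 ± 0.45 with the p300/CBP compound (95% interval -1.42 to 0.47, adjusted p = 0.559, edgeR) and -0.47 ± 0.40 with the PCAF/GCN5 compound (95% interval -1.32 to 0.37, adjusted p = 0.85, edgeR). With the PCAF/GCN5 compound 3 of 15100 genes passed in all, 0.00662% upward and 0.0132% downward, and 959 had an unadjusted p below 0.05.

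SEPTIN4 had 3, 4 and 10 counts in the non-induced p300/CBP libraries and 4, 8 and 14 counts in the non-induced PCAF/GCN5 libraries, against 5, 7 and 4 counts in the non-induced DMSO libraries. The ratios of summed counts to DMSO were 0.964 (95% interval 0.458 to 2.04) and 1.3 (95% interval 0.67 to 2.59), with overlapping libraries in both. NSG1 had 0 counts in all 3 non-induced p300/CBP libraries and 5, 4 and 8 counts in the non-induced PCAF/GCN5 libraries, against 2, 1 and 3 counts in the non-induced DMSO libraries. The 0 counts over the 3 libraries allow a level of up to 0.0446 CPM, and the ratio to DMSO of at most 0.771 is the upper end of its counting interval. ABCA12 had 0 counts in the non-induced p300/CBP libraries and 0, 1 and 0 counts in the non-induced PCAF/GCN5 libraries, against 3, 2 and 0 counts in the non-induced DMSO libraries.

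Set against each other in non-induced cells, 0.159% of 15131 genes were higher and 0.932% lower with the p300/CBP compound than with the PCAF/GCN5 compound. The log2 difference was -0.20 ± 0.28 for VCAN (95% interval -0.79 to 0.39, adjusted p = 0.785, edgeR) and 0.01 ± 0.44 for IGFBP3 (95% interval -0.92 to 0.94, adjusted p = 0.995, edgeR). For NSG1 the summed counts were 0 with the p300/CBP compound, against 17 with the PCAF/GCN5 compound, a ratio of at most 0.276 by its counting interval, and a two-sided exact permutation test over the 6 libraries gave p = 0.1, the smallest that design allows.

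The 6 groups also give induction under each compound. With the p300/CBP compound, the summed counts of induced over non-induced libraries differed 22.9-fold for IGFBP3, 25.4-fold for SEPTIN4 and 17-fold for VCAN. NSG1 was at least 188-fold higher and ABCA12 at least 126-fold higher in induced p300/CBP libraries, each against a floor of 3 counts over the non-induced group, which held 0 counts. With the PCAF/GCN5 compound the ratios were 21.2 for IGFBP3, 7.82 for SEPTIN4, 10.5 for VCAN and 30.4 for NSG1, and ABCA12 had 108 counts in induced libraries against 1 count in non-induced libraries. With DMSO the same ratios were 0.723 for IGFBP3, 1.08 for SEPTIN4, 2.37 for VCAN, 7.61 for NSG1 and 13.4 for ABCA12.

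The compound effect in induced cells minus that in non-induced cells is given as a value with no test, since the induced difference in it chose the genes. For the p300/CBP compound it was 4.95 ± 0.60 on the log2 scale for IGFBP3, 4.55 ± 0.68 for SEPTIN4 and 2.84 ± 0.36 for VCAN (SE). Without replicate 2 of induced DMSO the IGFBP3 value was 5.63, and without replicate 3 of the non-induced p300/CBP libraries the SEPTIN4 value was 5.31. For the PCAF/GCN5 compound it was 4.83 ± 0.57 for IGFBP3, 2.87 ± 0.69 for SEPTIN4 and 2.12 ± 0.35 for VCAN, and the IGFBP3 value was 5.52 without replicate 2 of induced DMSO. For NSG1 and ABCA12 the fitted values rest on non-induced groups at or near 0 counts and are not read.

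Relatives and partners of the 5 genes were read against the 6.01% of all genes that rose and the 7.77% that fell on induction in DMSO, and, in induced cells, the 2.94% and 3.04% for the p300/CBP compound and the 0.338% and 0.00663% for the PCAF/GCN5 compound. IGFBP3 acts on the insulin-like growth factor axis, of which 13 of 19 listed genes were tested on induction in DMSO. There IRS1, the receptor substrate that passes on the signal, fell to 13.2 ± 2.42 CPM in induced DMSO libraries, against 22.3 ± 1.71 CPM in non-induced DMSO libraries (adjusted p = 0.00599, edgeR), and IGF2R, the receptor that clears IGF2, rose (log2 fold change 0.22 ± 0.06). With the p300/CBP compound in induced cells, IGF2 itself fell to 0.969 ± 0.26 CPM, against 2.37 ± 0.354 CPM with DMSO (log2 fold change -1.29 ± 0.26, adjusted p = 0.0246, edgeR), as 1 of 12 genes tested. No gene of the axis passed with the PCAF/GCN5 compound, and the median log2 fold change there was -0.17, against -0.01 over all genes.

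None of the 9 septins tested besides SEPTIN4 passed in any of the 7 comparisons over all libraries, with median log2 fold changes from -0.09 to -0.01; the medians over all genes lay between -0.01 and 0.01. Around the ARTS isoform's partners, 12 of 13 listed inhibitors of apoptosis and their antagonists were tested. On induction in DMSO, BIRC3 (-0.74 ± 0.10), BIRC5 (-0.66 ± 0.11), which encodes survivin, and BCL2 (-0.58 ± 0.13) fell and CASP9, the initiator caspase, rose (0.44 ± 0.09, all on the log2 scale). BIRC5 also fell with the p300/CBP compound in induced cells, to 71.1 ± 2.3 CPM, against 115 ± 18.2 CPM with DMSO (adjusted p = 0.00703, edgeR). XIAP did not pass in any comparison.

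Of the hyaluronan and hyalectan genes related to VCAN, 9 of 23 were tested on induction. HMMR and CD44, both hyaluronan receptors, fell by 0.75 and 0.66 on the log2 scale, and none of the others tested passed. Those included the hyaluronan synthase HAS3 (0.148) and the versican-cleaving protease ADAMTS1 (-1.097). No other hyalectan, hyaluronan synthase or versican-cleaving protease had enough counts to be tested on induction. HMMR fell again with the p300/CBP compound in induced cells (-0.40 ± 0.09, adjusted p = 0.0341, edgeR). Of 8 tested endosomal recycling genes related to NSG1, STX12, an endosomal syntaxin, rose on induction (0.29 ± 0.07) and with the p300/CBP compound in induced cells (0.30 ± 0.07). Of 5 tested ABCA transporters other than ABCA12, the cholesterol exporter ABCA1 (0.56 ± 0.10) and ABCA2 (0.57 ± 0.14) rose on induction, and none passed with either compound in induced cells. Of 7 tested skin lipid barrier genes, ELOVL4, which elongates very long fatty acids, rose (0.48 ± 0.10) and UGCG, the glucosylceramide synthase, fell (-0.27 ± 0.06) on induction, and none passed with a compound in induced cells. The median log2 fold changes of these lists on induction were -0.08 for the apoptosis inhibitors, -0.21 for the hyaluronan genes, 0.06 for the endosomal genes, 0.50 for the ABCA transporters and 0.12 for the skin lipid genes. With the p300/CBP compound in induced cells they were -0.05, -0.12, 0.07, 0.14 and 0.11 in the same order.

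These counts are also given without the libraries that stand apart, a setting chosen after seeing the data. With either left out, 13 IGF axis genes, 9 septins, 12 apoptosis, 8 endosomal, 9 hyaluronan, 5 ABCA and 7 skin lipid genes were tested on induction. With all libraries 2075 of all genes passed on induction and 898 with the p300/CBP compound in induced cells. The number that passed over all genes moved with the library left out, so nothing is read from these counts for the lists. Without replicate 3 of induced DMSO 5001 genes passed on induction, and among them 2 septins rose and 2 fell, 2 IGF axis genes rose and 2 fell, 2 apoptosis genes rose and 5 fell, 3 endosomal genes rose, 3 hyaluronan genes fell, 3 ABCA transporters rose and 1 fell, and 3 skin lipid genes rose and 1 fell. Without it 3234 genes passed with the p300/CBP compound in induced cells, among which 3 septins and 2 apoptosis genes fell, 2 IGF axis genes rose and 2 fell, 1 hyaluronan gene rose and 3 fell, and 3 ABCA transporters, 3 endosomal genes and 1 skin lipid gene rose. For the PCAF/GCN5 compound none of these 7 lists held a gene that passed. Without replicate 3 of non-induced DMSO, 1012 genes passed on induction, among them 1 IGF axis gene, 2 apoptosis genes and 2 hyaluronan genes that fell, 1 ABCA transporter that rose, and no septin, endosomal or skin lipid gene.

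In non-induced cells the p300/CBP compound moved some of these relatives, where 3.43% of all genes rose and 6.46% fell. IGF2R rose (log2 fold change 0.23 ± 0.05), as did CASP9 (0.32 ± 0.09), ABCA1 (0.40 ± 0.10) and FBN1, a microfibril protein that binds versican (0.28 ± 0.06), while BIRC5 (-0.46 ± 0.06) and HMMR (-0.36 ± 0.05) fell. Without replicate 3 of non-induced DMSO 1 IGF axis gene, 1 endosomal gene, 1 hyaluronan gene and 1 ABCA transporter rose. In that setting 1 apoptosis gene and 1 hyaluronan gene fell, and no apoptosis gene rose. Over all genes 795 passed there, against 1478 with all libraries. With the PCAF/GCN5 compound in non-induced cells no gene of these lists passed.

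Known p53 targets, with the 5 genes left out, moved widely on induction: 31 of 38 tested rose and 1 fell, with a median of 1.10. With the p300/CBP compound in induced cells 28 of 38 rose and 0 fell (median 0.73), and with the PCAF/GCN5 compound 13 of 38 rose and 0 fell (median 0.36). The medians over all genes were 0.01, -0.00 and -0.01, and with PHLDA3, which had 0 counts in non-induced DMSO, set at its lower bound the median of the targets on induction stayed at 1.10. Over all genes 6.01%, 2.94% and 0.338% rose in the same comparisons. Without replicate 3 of induced DMSO the targets that rose were 34, 30 and 19, and those that fell 1, 2 and 1. Of all genes 5001, 3234 and 114 passed in that setting, against 2075, 898 and 52 with all libraries. Without replicate 3 of non-induced DMSO 29 targets rose and 1 fell on induction, where 1012 of all genes passed. The 3 comparisons share the induced DMSO libraries.

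**Figure D3:**
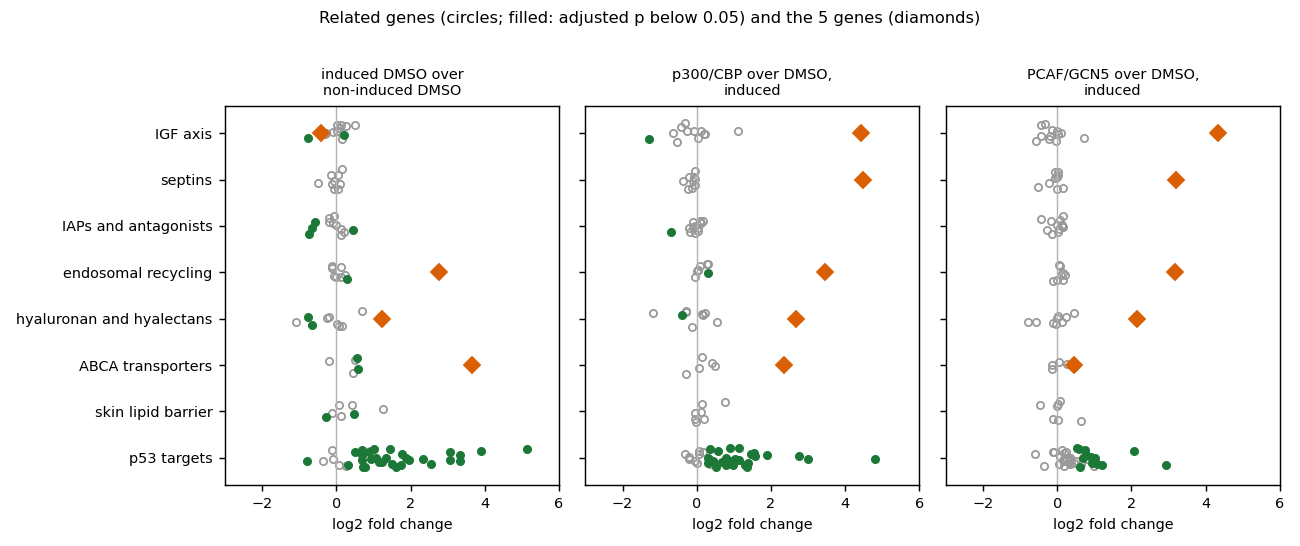
Log2 fold changes of related genes by list (circles; filled green where the adjusted p is below 0.05) and of the 5 genes (orange diamonds, each in the row of its own family) in 3 comparisons. SEPTIN4 has no diamond in the induction panel because it was below the filter on low counts, and PHLDA3, a p53 target with 0 counts in non-induced DMSO, is left out there. The diamonds at 2.16 to 4.47 with the compounds stand to the right of their relatives, which lie between -1.29 and 1.11 with the p300/CBP compound and between -0.78 and 0.72 with the PCAF/GCN5 compound, except ABCA12 with the PCAF/GCN5 compound at 0.46.

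The genes whose levels followed each of the 5 most closely across the 18 libraries were sought among 16019 genes (Pearson's r of log2 CPM, as a description; the libraries share 6 conditions). For IGFBP3 they were LCE1C (0.967), ANGPT4 (0.959) and KITLG (0.949). For SEPTIN4 they were PTPRK (0.96), INPP5D (0.957) and NINJ1 (0.953), and for NSG1 NCS1 (0.967), RNF144B (0.965) and ACHE (0.957). For VCAN they were POLH (0.986), which is on the p53 target list, ABHD4 (0.984) and AL158206.1 (0.983), and for ABCA12 RNF19B (0.978), KIAA1324 (0.972) and SLC19A2 (0.972). LCE1C held 0 counts in every non-induced library and 1 count over the induced DMSO libraries. Outside the induced compound libraries ANGPT4 held at most 2 and INPP5D at most 5 counts in a library, so these r values rest on levels near the floor. In non-induced libraries ABCA12 held at most 3 and NSG1 at most 8 counts. The r values of these 2 genes, also with the others of the 5, thus rest on such levels too. Only the 3 closest genes were sought for each, with the 5 left out, and none appeared for more than 1 of the 5. The 5, chosen together for their levels in induced cells, followed each other at r from 0.777 to 0.938.

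The gene models of the files fall on GRCh38 for all 5 genes, which are protein coding: IGFBP3 (ENSG00000146674) at chr7:45912245-45921874 on the minus strand, VCAN (ENSG00000038427) at chr5:83471618-83582303 on the plus strand, NSG1 (ENSG00000168824) at chr4:4348140-4419058 on the plus strand, ABCA12 (ENSG00000144452) at chr2:214931542-215138626 on the minus strand and SEPTIN4 (ENSG00000108387) at chr17:58520250-58544368 on the minus strand. Each value is a sum over all exons of the gene, so it does not separate the ARTS isoform of SEPTIN4 from the others. Whether counting used the strand is not stated, and 4 of the genes overlap a gene on the opposite strand. NSG1 shares 91 exonic bases with STX18, which held 965 to 1435 counts in all libraries but the shallowest, with 426, also in the 3 libraries in which NSG1 had 0. SEPTIN4 shares 1173 exonic bases with SEPTIN4-AS1, which held 1 to 9 counts in every library, and VCAN shares 453 with VCAN-AS1, which held 0 or 1. ABCA12 shares 58 exonic bases with AC072062.1, which held 1 to 22 counts.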

How the data were processed

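Total RNA from H1299 cells was made into strand-keeping libraries with the NEBNext Ultra II Directional kit, per the labels' protocols. The deposited tables hold raw gene counts, which the authors did not normalise, next to the authors' own log2 fold changes and adjusted p-values in the deposited tables of each comparison. StringTie and DESeq2 are named in the submitters' processing notes. The aligner, the genome build and the use of strand in counting are not given in the sources used here. The non-induced p300/CBP table has 1 broken line, that of ANK2, which was left out.

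From the counts, CPM was computed on each library's total. Comparisons used the quasi-likelihood test of edgeR 4.0.16 in R 4.3.3 on the 2 groups compared, with TMM scaling, filterByExpr and Benjamini-Hochberg adjustment over all genes tested, at an adjusted p below 0.05; standard errors were taken from the F statistic. Ratios of summed counts carry exact 95% intervals, which cover counting error only. Alternatives were DESeq2 size factors, DESeq2 1.42.0, no filter on low counts, 1 fit over the 6 groups, replicate number as a block and leaving out each library. The steps were tested on simulated data. Named are the 5 genes, up to 4 called genes per list with the largest change, and the 3 genes most like each of the 5; XIAP was added after its values were seen. The 5 genes and all lists were chosen with earlier results of these data known.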

Additional observations from a re-analysis of the deposited data

Results flagged for a closer look

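NSG1 drew attention because its listed counts with the p300/CBP compound were above DMSO in induced cells and below it in non-induced cells. In induced cells it averaged 8.38 CPM with the p300/CBP compound, against 0.741 CPM with DMSO, and in non-induced cells it averaged 0 CPM with the p300/CBP compound, against 0.149 CPM with DMSO. The non-induced values are 0 counts in each of the 3 p300/CBP libraries, against 2, 1 and 3 counts with DMSO, all at or under the floor of 3 counts, so no lower level is read there, and the difference between the states was not tested.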

How the results depend on the processing

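Of 418 values of the 5 genes under the alternatives, 393 kept their direction and their side of the threshold or, where untested, moved by less than the spread between libraries estimated from the fit. Of the others 11 lost the call, 6 untested values moved by more and 8 changed sign. The 418 hold only genes that passed the filter on low counts, so the NSG1 calls between compounds below are not among them. The sign changes were all of values that did not pass, and all but 1 came from leaving out a library. IGFBP3 on induction lay between -1.08 and 0.07 over the libraries left out, VCAN in non-induced cells between -0.32 and 0.10 with the p300/CBP compound and between -0.11 and 0.30 with the PCAF/GCN5 compound, and IGFBP3 between compounds in non-induced cells between -0.48 and 0.36 (signs also changed at -0.01, -0.06 and -0.09). DESeq2 gave no adjusted p for NSG1 on induction, nor for IGFBP3 and VCAN in the comparisons within non-induced cells.

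With 1 fit over all 6 groups, the count of genes that passed was 3455 on induction in DMSO (2075 from the 2 groups alone), 615 for the p300/CBP compound in non-induced cells (1478), 0 for the PCAF/GCN5 compound in non-induced cells (3), 394 between compounds in induced cells (617), 2214 for the p300/CBP compound in induced cells (898) and 352 for the PCAF/GCN5 compound in induced cells (52). Without the filter on low counts it was 48 for the PCAF/GCN5 compound and 594 between compounds (165 with it) in non-induced cells, and 2106 for the p300/CBP compound and 541 for the PCAF/GCN5 compound in induced cells. DESeq2 gave 439 between compounds in non-induced cells and 128 for the PCAF/GCN5 compound in induced cells. NSG1 was the 1 gene of the 5 to pass between compounds in non-induced cells, without the filter and with 1 fit over all groups (1 in each), and its fitted value rests on a group of 0 counts. The cause of these differences was not tested.

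Leaving out 1 library moved the count of genes that passed to between 869 and 5001 on induction in DMSO, 527 and 2384 for the p300/CBP compound and 0 and 17 for the PCAF/GCN5 compound in non-induced cells, and 1 and 310 between compounds in non-induced cells. In induced cells the ranges were 236 to 1098 between compounds, 263 to 3234 for the p300/CBP compound and 29 to 114 for the PCAF/GCN5 compound. The highest counts on induction and with either compound in induced cells, 5001, 3234 and 114, were those without replicate 3 of induced DMSO. Of the 5 genes, 1 to 3 passed on induction.

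The replicate numbers are shared between groups, but same-numbered libraries did not deviate together (correlations of deviations from -0.06 to 0.082). With the replicate number as a block, 14 genes passed for the PCAF/GCN5 compound and 46 between compounds in non-induced cells, and 530 for the p300/CBP compound in induced cells; IGFBP3 between compounds in non-induced cells was -0.04 with the block. Depth limits the reading of SEPTIN4, NSG1 and ABCA12 in non-induced cells, where most libraries held 10 counts or fewer.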

Other observations

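NSG1 and ABCA12 are best known from neurons and keratinocytes, and markers of other cell types were read beside them. Of 9 neuronal markers tested on induction in DMSO, 4 rose and 1 fell (edgeR, adjusted p below 0.05), where 6.01% of all genes rose and 7.77% fell. In each comparison within non-induced cells 6 of the 13 listed were tested. Some of the 9 thus passed the filter on low counts only through induced cells, and the count that rose is not independent of it. NEFM, ELAVL3 and NEFL averaged 0.284, 0.151 and 0.378 CPM in non-induced DMSO libraries. Without replicate 3 of induced DMSO 5 of the 9 markers rose and 1 fell, where 5001 of all genes passed. Without replicate 3 of non-induced DMSO 2 rose and 1 fell, where 1012 of all genes passed. NEFM, a neurofilament subunit, had 8.98 ± 1.66 CPM in induced DMSO libraries, against 0.284 ± 0.364 CPM in non-induced DMSO libraries (log2 fold change 4.74 ± 0.48, adjusted p = 0.000323). ELAVL3, a neuronal RNA-binding protein, rose by 2.78 ± 0.55 and NEFL, the light neurofilament subunit, by 1.48 ± 0.34, while SNAP25, a protein of synaptic vesicle fusion, fell to 9.8 ± 1.65 CPM in induced DMSO libraries, against 16.5 ± 1.16 CPM in non-induced DMSO libraries. With the p300/CBP compound in induced cells NEFL rose again, to 2.38 ± 0.329 CPM, against 1.04 ± 0.139 CPM with DMSO (adjusted p = 0.0197). The summed level of the 13 listed neuronal markers was 51.6 to 57.7 CPM with the p300/CBP compound, 48.6 to 51.6 CPM with the PCAF/GCN5 compound and 42 to 53.9 CPM with DMSO in induced cells, and 36.6 to 46.3 CPM in the non-induced groups. Their part in the NSG1 values was not tested.

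Keratinocyte markers, read beside ABCA12, summed to 17.6 to 24.1 CPM over all 6 groups. Of the 12, 1 had enough counts to be tested, and it passed in none of the 7 comparisons. The number at 0 counts was 5 with the p300/CBP compound, 5 with the PCAF/GCN5 compound and 7 with DMSO in induced cells, and 9, 8 and 9 in non-induced cells. Their part in the ABCA12 values was not tested. Fibroblast markers, read beside VCAN, summed to 2.43 to 4.14 CPM over all groups, and none of the 3 tested passed. Leukocyte markers summed to 2.1 to 4.84 CPM. None of 9 markers of lung epithelium had enough counts to be tested, and their summed level was 0.0822 to 1.11 CPM over all groups.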
